A study of Mus musculus with 2 samples.

Results

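Photoreceptor fate transcription factors are the DNA-binding proteins that commit a retinal precursor to the rod or cone fate and hold its gene expression in place. The 10 genes described here are Nrl, Nr2e3, Crx, Otx2, Neurod1, Rorb, Mef2d, Mef2c, Esrrb and Prdm1. They were chosen by name, as regulators of photoreceptor identity, and all 10 were found among the 31053 genes of the expression matrix. Their levels were measured by single-cell RNA sequencing of the mouse retina, in 1 pooled run that gave 1 expression library and 1 tag library. In the study, newborn wild-type retinas were electroporated with a plasmid carrying the fluorescent reporter EGFP alone, or with plasmids for the nuclear envelope proteins lamin A or Lbr, and viable EGFP-positive cells were sorted in adulthood. Cells of the 3 conditions carried 3 oligonucleotide tags (MULTI-seq), so that all groups share the electroporation, the reporter and the sort. The plasmids act only in cells that took them up at birth, and each tag is 1 pool of cells. The study kept CD1, C57BL/6J and rd1 mice and worked with both sexes, and the strain and sex behind each tag are not given in the sources used here. The labels name the cells as rods of the retina and tie no tag to a plasmid, so that tag 1, tag 2 and tag 3 are given with no condition assigned.

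These factors form a network with a known order. Otx2 and Crx are related homeodomain proteins, of which Otx2 commits precursors to the photoreceptor and bipolar lineages and Crx drives genes shared by rods and cones. The nuclear receptor Rorb acts upstream of Nrl, a basic leucine zipper protein that directs the rod fate. Nr2e3 is an orphan nuclear receptor that works under Nrl to activate rod genes and to repress cone genes. Neurod1 is a basic helix-loop-helix protein needed for photoreceptor survival, Mef2d and Mef2c are MADS-box factors that act in neurons and muscle, and Esrrb is an estrogen-related nuclear receptor of rods. Prdm1 is a repressor that newborn photoreceptor precursors hold for a short time and that keeps them from the bipolar fate.

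The upstream promoter sequences of 3 members are printed, those of Nrl and Nr2e3 as factors of the rod fate and that of Crx as a factor of rods and cones. Each is the 250 bases before the annotated start site from RefSeq on GRCm38.p6, the mm10 genome, written 5′ to 3′ in the sense of the gene. Capitals mark matches, on either strand, to TAATCC (the core bound by Crx and Otx2), TGCTGA (Nrl), CAGATG (an E-box bound by Neurod1), AGGTCA (Rorb), AAGTCA (Nr2e3) or CTA and TAG with 4 bases between them (Mef2).
Crx, chr7:15879956-15880205, minus strand: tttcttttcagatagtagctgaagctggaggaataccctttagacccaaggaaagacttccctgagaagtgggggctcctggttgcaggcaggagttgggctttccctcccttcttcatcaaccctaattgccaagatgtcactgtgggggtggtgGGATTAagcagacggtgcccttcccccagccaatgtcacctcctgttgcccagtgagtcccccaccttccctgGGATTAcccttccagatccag
Nrl, chr14:55524253-55524502, minus strand: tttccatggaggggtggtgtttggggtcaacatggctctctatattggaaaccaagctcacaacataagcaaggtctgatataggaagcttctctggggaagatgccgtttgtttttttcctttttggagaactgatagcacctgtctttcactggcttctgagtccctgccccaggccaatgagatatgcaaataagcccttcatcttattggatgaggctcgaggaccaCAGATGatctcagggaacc
Nr2e3, chr9:59950080-59950329, minus strand: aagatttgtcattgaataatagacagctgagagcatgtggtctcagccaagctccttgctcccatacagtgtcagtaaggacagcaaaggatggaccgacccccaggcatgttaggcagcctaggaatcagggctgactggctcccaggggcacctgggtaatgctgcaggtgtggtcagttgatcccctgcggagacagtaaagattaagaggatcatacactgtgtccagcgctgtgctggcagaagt
The Crx window held 2 matches to TAATCC, both as GGATTA on the other strand, and 6.25% of the 32851 promoter windows of this length held at least 1. The Nrl window held 1 match to CAGATG, which 14.4% of windows held, and the Nr2e3 window held no match to any of the 6 motifs. TGCTGA, held by 16.1% of windows, was matched 2 times in the Neurod1 window. It was matched 1 time each in the Mef2d window and in 1 window of Rorb, of Otx2 and of Mef2c. A match is a run of letters and not a measured binding site.

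The expression library held 2487110 unique molecular identifiers (UMIs, counts of captured RNA molecules) in 834 cell barcodes, and the tag library covered 645 of these barcodes. After 27 doublets were left out, 807 barcodes were clustered without the 10 members and without the further regulator lists. The clusters were named from their marker genes as rod-like (641 cells, median 2411 UMIs), cone-like (12 cells, median 2740), bipolar-like (46 cells, median 7667), Müller glia-like (91 cells, median 1125) and microglia-like (17 cells, median 3372). The label of rods held for most barcodes, since the rod-like cells had all 6 rod markers in at least 25% of cells, at a summed 87820.5 CPM. The other 4 classes were named from markers of other cell types, but rod markers were seen there too. Cone-like cells also had all 6 in at least 25% of cells and Müller glia-like cells had 4, at a summed 31893 and 7777 CPM. Müller glia-like cells had 3 of the 10 Müller glia markers in at least 25% of cells. These 10 markers summed to 6449 CPM there, under the sum of the rod markers. In bipolar-like and microglia-like cells the rod markers summed to 1006 and 281 CPM. All classes come from 1 pooled run, so there are no replicates and no test. Levels are given in CPM, the UMIs of a gene scaled to a total of 1000000 UMIs of a class, with exact Poisson 95% intervals, which cover counting error only. The UMIs of a gene came in clumps, so that even these intervals are too narrow. Among genes seen in only 2 to 5 rods, 55.5% of the values above 0 were 2 UMIs or more. For Nrl in rods this share was 86.7%, but a gene at its level can reach such a share without clumps.

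Nrl and Nr2e3, the factors of the rod fate, were high in rod-like cells and low elsewhere. Nrl (ENSMUSG00000040632, chr14:55518978-55524981) stood at 1813 CPM in rod-like cells (95% interval 1752 to 1876, 3298 UMIs in 480 of 641 cells). It stood at 575 CPM in cone-like cells (368 to 855, 24 UMIs), 177 in Müller glia-like cells (116 to 259, 26 UMIs), 29.6 in microglia-like cells (3.58 to 107, 2 UMIs) and 9.01 in bipolar-like cells (1.86 to 26.3, 3 UMIs). The order of the first 3 classes held beyond their counting intervals, while the intervals of microglia-like and bipolar-like cells overlapped. The level in rod-like cells was 3.16-fold that of cone-like cells (2.12 to 4.93), 10.2-fold that of Müller glia-like cells (6.98 to 15.7) and 201-fold that of bipolar-like cells (68.8 to 977).

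Nr2e3 (ENSMUSG00000032292, chr9:59942771-59960659) fell off more steeply between rod-like and cone-like cells when all 12 cone-like cells were counted. Its level was 1525 CPM in rod-like cells (1468 to 1582, 2773 UMIs), 119.7 in cone-like cells (38.9 to 279, 5 UMIs), 68.1 in Müller glia-like cells (32.7 to 125, 10 UMIs) and 6.004 in bipolar-like cells (0.727 to 21.7, 2 UMIs). No UMI was seen in microglia-like cells, where 3 counts would be 44.4 CPM. The rod-like level was 12.7-fold the cone-like level (5.45 to 39.3), with cone-like and Müller glia-like intervals overlapping. In the 9 cone-like cells with a UMI of a cone opsin or cone arrestin, Nrl had 1 UMI and Nr2e3 had none. With these 9 cells, a choice made after seeing the data, the log2 ratios of rod-like over cone-like cells overlapped. They were 5.34 for Nrl (3.44 to 11.2) and 6.67 for Nr2e3, with an interval that began at 3.79. The annotation places an antisense RNA and a long noncoding RNA over this gene, so its counts are uncertain to that extent.

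The intervals of Crx and Otx2 overlapped between rod-like and cone-like cells, and the 2 factors differed from each other in bipolar-like cells. Crx (ENSMUSG00000041578, chr7:15865947-15879968) was at 551 CPM in cone-like cells (349 to 826, 23 UMIs in 7 of 12 cells) and at 389.8 CPM in rod-like cells (362 to 420, 709 UMIs in 183 cells), and the intervals overlapped. It was lower in Müller glia-like cells at 68.1 CPM (32.7 to 125, 10 UMIs in 2 cells) and in bipolar-like cells at 63.0 CPM (39.0 to 96.4, 21 UMIs in 8 cells), and no UMI was seen in microglia-like cells. The rod-like level of Crx was 6.18-fold the bipolar-like level (4.01 to 10.1).

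Otx2 (ENSMUSG00000021848, chr14:48657677-48673819) had the opposite order between these classes. Its level was 486 CPM in bipolar-like cells (414 to 567, 162 UMIs in 24 of 46 cells), 215 in cone-like cells (98.5 to 409, 9 UMIs in 3 cells), 193 in rod-like cells (173 to 214, 351 UMIs in 82 cells) and 20.4 in Müller glia-like cells (4.21 to 59.7, 3 UMIs). The bipolar-like level was above all others beyond the counting intervals, and the cone-like and rod-like levels overlapped. The direction between the last 2 turned with the cells used, since the log2 ratio of rod-like over cone-like cells went from -0.24 (-1.10 to 0.98) to -1.55 (-2.49 to -0.22) among barcodes that pass the cell filter and to 1.46 (-0.09 to 4.83) without the highest cell of each class. On the log2 scale the ratio of rod-like over bipolar-like cells was -1.34 for Otx2 (-1.61 to -1.06) and 2.60 for Crx (2.01 to 3.33). Overlapping noncoding RNAs on both strands make the Otx2 counts uncertain to that extent.

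Neurod1 was high in both photoreceptor classes. Neurod1 (ENSMUSG00000034701, chr2:79452521-79456751) was at 1484 CPM in cone-like cells (1138 to 1903, 62 UMIs in 9 of 12 cells), 833 in rod-like cells (792 to 876, 1515 UMIs in 280 cells), 360.2 in bipolar-like cells (299 to 431, 120 UMIs in 27 cells) and 47.7 in Müller glia-like cells (19.2 to 98.2, 7 UMIs), and none was seen in microglia-like cells. All 4 levels were apart beyond their counting intervals. The cone-like lead rested in part on 1 barcode with 34 of the 62 UMIs. With the highest cell of each class left out, the log2 ratio of rod-like over cone-like cells went from -0.84 (-1.20 to -0.44) to -0.30. The annotated interval of Neurod1 overlaps part of Cerkl on the same strand.

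Rorb was the member with the flattest profile across the neural and glial classes. Rorb (ENSMUSG00000036192, chr19:18930605-19111196) was at 609 CPM in bipolar-like cells (528 to 699, 203 UMIs in 32 cells), 292.5 in rod-like cells (268 to 318, 532 UMIs in 124 cells), 218 in Müller glia-like cells (149 to 308, 32 UMIs in 9 cells) and 215 in cone-like cells (98.5 to 409, 9 UMIs in 3 cells). The last 3 levels overlapped. One Müller glia-like barcode held 14 of the 32 UMIs, and without the highest cell of each class the log2 ratio of rod-like over Müller glia-like cells went from 0.40 (-0.09 to 0.99) to 1.11 (0.47 to 1.91). The Müller glia-like level was 74.5% of the rod-like level (50.4 to 106%), and on CPM without mitochondrial genes the direction turned, with a log2 ratio of rod-like over Müller glia-like cells of -0.54 against 0.40. Median mitochondrial shares were 50.7% in Müller glia-like and 16.0% in rod-like cells, and the part of this difference in the values was not tested. No Rorb UMI was seen in microglia-like cells.

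The MADS-box factors differed from each other in microglia-like cells. Mef2c (ENSMUSG00000005583, chr13:83504034-83667080) was at 385 CPM in microglia-like cells (251 to 563, 26 UMIs in 7 of 17 cells) and at 372 CPM in rod-like cells (344 to 401, 676 UMIs in 185 cells), and the log2 ratio of these levels was -0.08 (-0.61 to 0.58). It stood lower at 119.7 CPM in cone-like cells (38.9 to 279), 84.0 in bipolar-like cells (55.9 to 121) and 74.9 in Müller glia-like cells (37.4 to 134). Gnat1, the rod transducin alpha subunit, stood at 5787 CPM in rod-like and 44.4 CPM (3 UMIs) in microglia-like cells. Mef2d (ENSMUSG00000001419, chr3:88142372-88172086) was at 112 CPM in rod-like cells (97.3 to 129, 204 UMIs in 54 cells) and 95.8 in cone-like cells (26.1 to 245, 4 UMIs in 1 cell). It had 5 UMIs in 1 bipolar-like cell, 1 UMI in microglia-like cells and none in Müller glia-like cells, so that its rod-like level was at least 5.49-fold the Müller glia-like level against a floor of 3 counts, with an exact interval that began at 4.42-fold. Among barcodes that pass the cell filter, 8 of them Müller glia-like, this log2 ratio went from 5.05 to 0.40. Mef2d overlaps an RNA on the opposite strand.

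Esrrb was low and Prdm1 was at the limit of detection. Esrrb (ENSMUSG00000021255, chr12:86361117-86521628) was at 67.1 CPM in rod-like cells (55.7 to 80.1, 122 UMIs in 35 cells) and at 54.5 CPM in Müller glia-like cells (23.5 to 107), the latter from 8 UMIs in 2 barcodes. The log2 ratio of these levels went from 0.22 to 2.47 without the highest cell of each class and to -4.58 among barcodes that pass the cell filter. No Esrrb UMI was seen in cone-like, bipolar-like or microglia-like cells, and the rod-like level was at least 7.45-fold the bipolar-like level against a floor of 3 counts, with an exact interval that began at 5.97-fold. Prdm1 (ENSMUSG00000038151, chr10:44437177-44528501) gave 1 UMI in 1 rod and none in the other classes. Its level in rod-like cells, 0.55 CPM, was under the 1.65 CPM that 3 counts would give. The repressor was therefore not measurable in these adult cells at this depth.

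**Figure D1:**
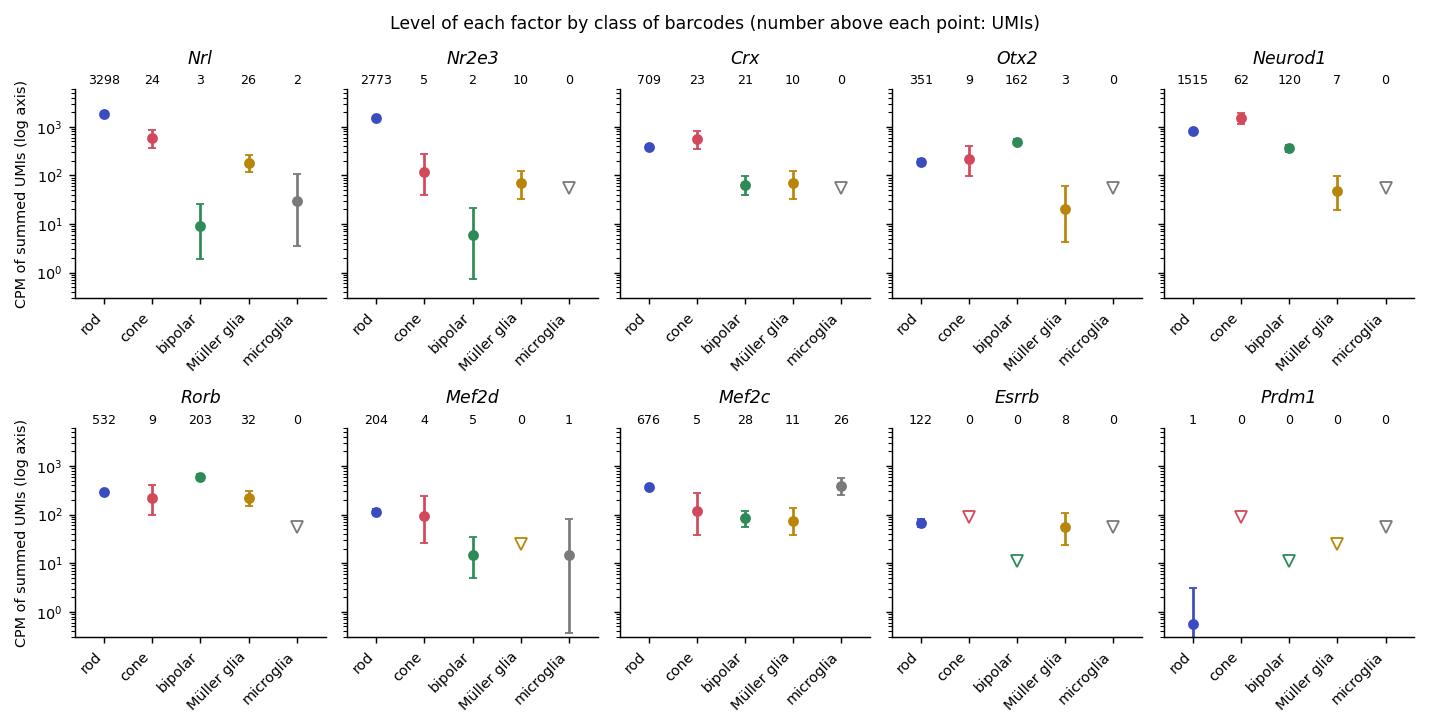
Level of each of the 10 factors in CPM (log axis) in rod-like, cone-like, bipolar-like, Müller glia-like and microglia-like cells, with exact Poisson 95% intervals of the summed UMIs. Open triangles mark the upper limit where no UMI was seen. Nrl and Nr2e3 stand highest in rod-like cells, Otx2 and Rorb in bipolar-like cells, and the intervals of Mef2c overlap between microglia-like and rod-like cells.

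Counts of members past a 1.5-fold difference were set beside the share of all genes past it, where both classes had 20 or more expected UMIs. Of the 8 members with that many against bipolar-like cells, 6 were higher in rod-like cells (Nrl, Nr2e3, Crx, Neurod1, Mef2d and Mef2c), where 39.3% of 2256 genes were, and 2 were lower (Otx2 and Rorb), where 20.4% were. Against Müller glia-like cells 6 of 7 members were higher and none was lower, and 68.9% of 970 genes were higher and 6.19% lower. Against microglia-like cells 4 of 5 were higher (Nrl, Nr2e3, Crx and Neurod1) and none was lower, beside 63.7% and 15.7% of 432 genes. Against cone-like cells 3 members could be compared, of which Nrl and Nr2e3 were higher and Neurod1 was lower, beside 31.9% and 9.06% of 276 genes. The median log2 ratio of these members was 2.36 against bipolar-like, 3.02 against Müller glia-like, 5.72 against microglia-like and 1.63 against cone-like cells. Over all genes it was 0.30, 1.27, 1.48 and 0.23. The clusters behind the classes were made without the members, but from the same barcodes and with genes that vary together with them.

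The level of Gnat1 in a class was used as a gauge for RNA of rods among its UMIs. Gnat1 is 1 of the 6 rod markers that named the classes and, unlike the members, was not kept out of the clustering. Its level outside rod-like cells can be lowered by the way the classes were made, which was not tested. Bipolar-like cells held 0.986% of the rod-like Gnat1 level (0.593 to 1.54%), and 0.497% of the Nrl level (0.102 to 1.45%) and 0.394% of the Nr2e3 level (0.0477 to 1.42%), and the intervals of both factors held the value of the gauge. Crx at 16.2%, Mef2c at 22.6%, Mef2d at 13.4% and Neurod1 at 43.2% of the rod-like level lay above it, as did Otx2 at 252% and Rorb at 208%. Müller glia-like cells held 10.1% of the rod-like Gnat1 level (8.09 to 12.5%). There Nrl stood at 9.76%, Otx2 at 10.6% (2.17 to 31.2%), Neurod1 at 5.72% (2.30 to 11.8%) and Nr2e3 at 4.47% (2.14 to 8.23%) of the rod-like level. Rorb, with 14 of its 32 UMIs in 1 barcode, stood at 74.5%. Crx, Mef2c and Esrrb also stood above the gauge, on 10, 11 and 8 UMIs. Their levels were 68.1, 74.9 and 54.5 CPM in Müller glia-like cells against 389.8, 372 and 67.1 CPM in rod-like cells. One barcode held 9 of the 10 Crx UMIs. Mef2d had no UMI in Müller glia-like cells. In microglia-like cells the gauge was 0.767% (0.158 to 2.24%) and Mef2c stood at 103% (67.1 to 153%).

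**Figure D2:**
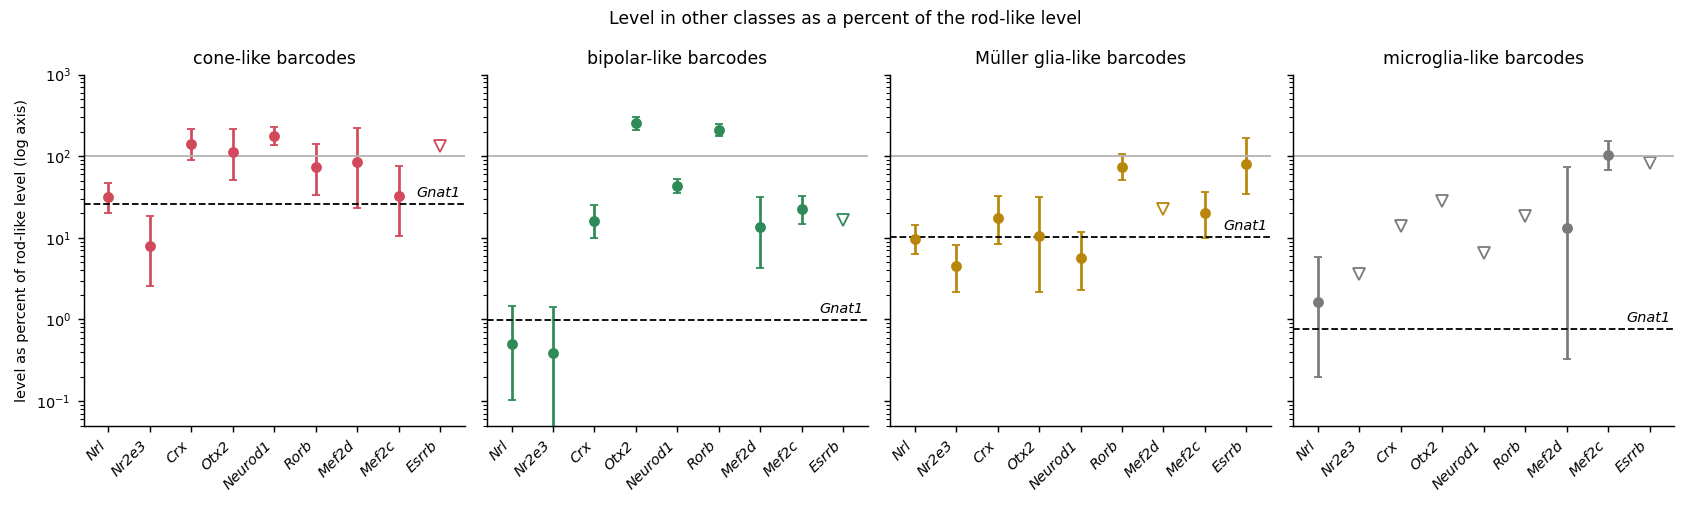
Level of 9 factors (all but Prdm1) in the other 4 classes as a percent of its level in rod-like cells (log axis), with exact 95% intervals that cover counting error. The dashed line of each class is the same percent for Gnat1, from 0.767% in microglia-like to 26.1% in cone-like cells, and the grey line is the rod-like level. Open triangles are upper limits where no UMI was seen.

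The cone-like and Müller glia-like values of the rod factors came from few barcodes. Cone-like cells held 26.1% of the rod-like Gnat1 level and 31.7% of the Nrl level. Of the 12 cone-like cells, 9 had a UMI of a cone opsin (Opn1sw, Opn1mw) or of cone arrestin (Arr3). Together these 9 held 1 Nrl UMI, no Nr2e3 UMI, 17 Crx UMIs, 56 Neurod1 UMIs and 5 Gnat1 UMIs. The other 3 cells held 23 Nrl, 5 Nr2e3, 6 Crx, 6 Neurod1 and 58 Gnat1 UMIs. With the 9 cells alone, a choice made after seeing the data, the log2 ratio of rod-like over cone-like cells went from 1.63 to 5.34 for Nrl and was -1.02 for Neurod1. In Müller glia-like cells, 1 barcode with 28 Gnat1 UMIs held 9 of the 10 Crx UMIs, 7 of the 26 Nrl UMIs and 4 of the 11 Mef2c UMIs. Without the highest cell of each class, the log2 ratio of Crx in rod-like over Müller glia-like cells went from 2.45 to 5.13. The classes were spread unevenly over the tags, and most bipolar-like cells carried tag 2. Among tag 2 cells, 276 rod-like and 32 bipolar-like, the log2 ratio was 7.90 for Nrl, -1.32 for Otx2 and -1.49 for Rorb.

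Within the rod-like cells Nrl and Nr2e3, the members with most UMIs, had the smallest range of levels. The rod-like cells fell into 5 clusters of 195, 186, 113, 89 and 58 cells, numbered 0, 1, 2, 4 and 5. Nrl ranged from 1538 to 2278 CPM between them, a ratio of 1.48, and Nr2e3 from 1376 to 1783 CPM, a ratio of 1.30. The other members with UMIs in every cluster ranged further, by 1.89-fold for Crx, 1.99-fold for Mef2c, 2.19-fold for Neurod1, 2.20-fold for Rorb, 3.17-fold for Otx2 and 3.56-fold for Mef2d. Fewer UMIs widen such a range, and the part of this in the order was not tested. The extremes of Mef2d rested on 28 and 26 UMIs and the low of Otx2 on 17. For each member with UMIs in every cluster, Nrl and Nr2e3 included, the lowest and highest levels were still apart beyond their counting intervals. Cluster 4 had the highest levels of Crx (514 CPM), Otx2 (351), Neurod1 (1268), Rorb (415), Mef2c (530.0) and Esrrb (141), and the lowest level of Nrl (1538). Cluster 5 had the highest levels of Nrl, Nr2e3 and Mef2d and no Esrrb UMI.

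One barcode in cluster 4 stood apart from all other rods. It held 85822 UMIs of 7614 genes, 17.3% of the UMIs of its cluster, and was over the limit on detected genes, with 184 Neurod1, 134 Nr2e3, 77 Mef2c, 73 Nrl, 62 Crx and 53 Otx2 UMIs. Without it the levels of cluster 4 were 470.3 CPM for Crx, 295 for Otx2, 1084 for Neurod1, 431 for Rorb, 453 for Mef2c, 127 for Esrrb and 1681 for Nrl. Otx2, Neurod1, Rorb, Mef2c and Esrrb then still had their highest level in cluster 4, while Crx was highest in cluster 0, at 510.3 CPM with all its cells, and Nrl in cluster 4 stayed the lowest of the 5. This barcode is not among the rods compared between tags, all of which were within the limits. Other rods were deep too. In a finer clustering (resolution 2), 1 rod-like cluster held 14 cells with a median of 14349.5 UMIs and 2521 genes, 13 of them with tag 1. The part of such cells in the levels of cluster 4 was not tested.

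**Figure D3:**
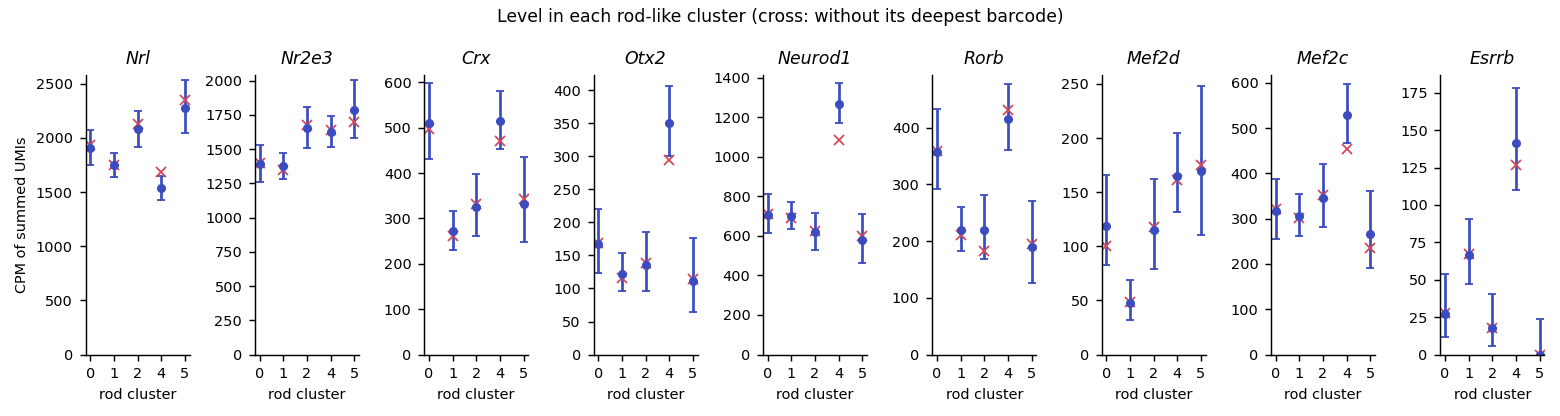
Level of 9 factors (all but Prdm1) in the 5 rod-like clusters in CPM (linear axes that start at 0, a scale for each factor), with exact Poisson 95% intervals. Crosses are the values without the deepest barcode of a cluster. Nrl and Nr2e3 stay within 1.5-fold across clusters, while Otx2 and Mef2d, on fewer UMIs, span more than 3-fold.

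Few rods showed many of the factors at a time when all cells were cut to the same depth. To compare cells at 1 depth, each cell was thinned to 1000 UMIs and shallower cells were left out, which kept 580 of 641 rods. Of these, 68.4% had an Nrl UMI (64.5 to 72.2%, exact Clopper-Pearson), 52.2% an Nr2e3 UMI, 31.0% a Neurod1 UMI, 21.03% a Crx UMI, 18.3% a Mef2c UMI, 13.1% a Rorb UMI, 7.59% an Otx2 UMI, 5.17% a Mef2d UMI and 2.76% an Esrrb UMI. In all rods, not thinned, 74.9% had an Nrl UMI. The 13 microglia-like cells deep enough serve as a background for these factors apart from Mef2c. Of them, 7.69% had an Nrl UMI (1 cell) and 7.69% a Mef2d UMI (1 cell, 0.195 to 36.0%), so that the Mef2d share of rods was not above this background. None had an Nr2e3, Crx, Otx2, Neurod1, Rorb or Esrrb UMI. With 13 cells the upper limit of such a share is 24.7%, which is above the rod shares of Crx, Rorb, Otx2 and Esrrb. A thinned rod held UMIs of a median of 2 of the 10 members and of at most 6, and 7.24% of rods held none. In rods not thinned the median was 3 and the highest number 9, and 6.86% held none. A factor with few UMIs can be missed at either depth, so a rod without its UMI need not lack it. After thinning, no member was seen in 46.2% of 39 bipolar-like, 84.9% of 53 Müller glia-like and 84.6% of 13 microglia-like cells. Among the 397 thinned rods with an Nrl UMI, 56.4% also had an Nr2e3 UMI (51.4 to 61.4%), and among the 183 without, 43.2% had (35.9 to 50.7%). For Neurod1 these shares were 29.0% (24.6 to 33.7%) and 35.5% (28.6 to 42.9%).

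Between the tags, the question in the study was whether misexpressed lamin A or Lbr changes rod gene expression, and the comparison here covers rods within the study's stated limits on genes and mitochondrial share. These were 194 rods of tag 1 (582928 UMIs), 134 of tag 2 (350251 UMIs) and 24 of tag 3 (68495 UMIs). The tags also differed in depth and in other measures. The share of rods within the limits was 80.8%, 48.6% and 68.6%, and the median mitochondrial share of those kept was 11.01%, 14.4% and 11.4%. The summed level of the 6 rod markers was 90202, 101664 and 76035 CPM, and that of red blood cell genes was 1594, 148 and 43.8 CPM. Müller glia markers summed to 757, 568 and 1007 CPM, cone markers to 539, 65.7 and 1183 CPM (44.6, 11.4 and 43.8 CPM without Gnb3, a choice made after seeing the data) and bipolar markers to 103, 25.7 and 102 CPM. The part of these differences in the members' values was not tested.

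Nrl and Nr2e3 were a little higher in tag 2 than in tag 1, and Nr2e3 was lower in tag 3 than in both. Nrl was at 1896 CPM in tag 1 (1785 to 2011, 1105 UMIs), 2227 in tag 2 (2073 to 2389, 780 UMIs) and 1679 in tag 3 (1386 to 2015, 115 UMIs). Its log2 ratio was 0.23 in tag 2 against tag 1 (interval 0.10 to 0.37). In tag 3 it was -0.17 against tag 1 (interval -0.46 to 0.10) and -0.40 against tag 2 (interval -0.70 to -0.12). Nr2e3 was at 1453 CPM in tag 1 (1357 to 1554, 847 UMIs), 1773 in tag 2 (1636 to 1918, 621 UMIs) and 730.0 in tag 3 (542 to 962, 50 UMIs in 13 rods). In tag 2 its log2 ratio against tag 1 was 0.29 (interval 0.14 to 0.44). In tag 3 it was -0.98 against tag 1 (interval -1.43 to -0.58) and -1.27 against tag 2 (interval -1.73 to -0.86). Gnat1 stood at 5047, 6253 and 4453 CPM in tags 1, 2 and 3, with log2 ratios against tag 1 of 0.31 in tag 2 and -0.18 in tag 3.

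The size of the Nr2e3 difference in tag 3 depended on how UMIs were counted. When each cell with a UMI was counted 1 time, whatever its number of UMIs, the log2 ratio of tag 3 was -0.20 against tag 1 and -0.34 against tag 2. Over the other alternatives these ratios lay between -1.36 and -0.66 and between -1.63 and -0.80. Thinned to 1000 UMIs, 55.4% of tag 1, 57.7% of tag 2 and 33.3% of tag 3 rods had an Nr2e3 UMI, the last with an interval of 15.6 to 55.3% from 24 rods. The intervals of the 3 shares overlapped.

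**Figure D4:**
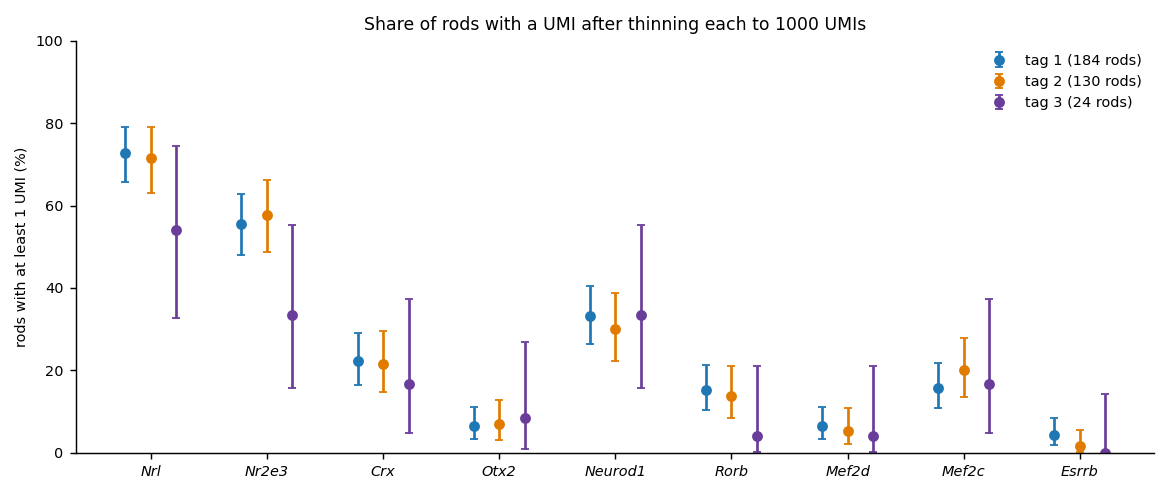
Share of rods with a UMI of 9 factors (all but Prdm1) in percent, by tag, after each rod was thinned to 1000 UMIs (184, 130 and 24 rods of tags 1, 2 and 3), with exact Clopper-Pearson 95% intervals. The intervals of the 3 tags overlap for each of the 9, and those of tag 3 are widest.

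The other members stood on fewer UMIs in each tag. Crx was at 419 CPM in tag 1 (244 UMIs), 319.8 in tag 2 (112 UMIs) and 234 in tag 3 (16 UMIs in 5 rods). The log2 ratio of Crx was -0.38 in tag 2 against tag 1 (interval -0.72 to -0.06) and -0.80 in tag 3 against tag 1 (interval -1.67 to -0.11). The latter went from -0.30 with the mean of CPM over cells to -1.65 without the highest cell of each tag, where 8 UMIs were left in tag 3. Neurod1 was at 799, 639.5 and 832 CPM, with log2 ratios against tag 1 of -0.32 in tag 2 (interval -0.56 to -0.09) and 0.07 in tag 3. Rorb was at 276, 188 and 131 CPM, the last from 9 UMIs, and in tag 2 against tag 1 the log2 ratio was -0.55 (interval -0.99 to -0.13). Mef2c was at 305, 348 and 204 CPM, the last from 14 UMIs, Otx2 at 113, 143 and 87.6 CPM, and Mef2d at 108, 94.2 and 43.8 CPM, the last from 3 UMIs. Esrrb had 45 UMIs in 17 rods of tag 1, 6 UMIs in 5 rods of tag 2 and 2 UMIs in 1 rod of tag 3. In tag 2 against tag 1 this gave a log2 ratio of -2.07 (interval -3.69 to -0.94), and -0.93 when each cell was counted 1 time. Prdm1 had 1 UMI in tag 1 and none in the others.

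**Figure D5:**
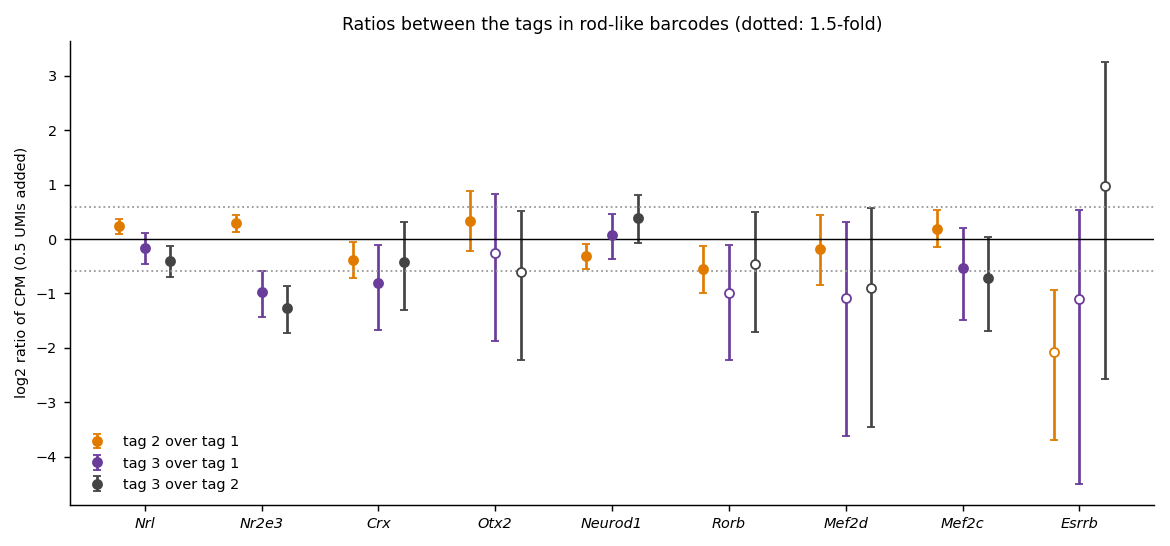
Log2 ratio of the level of 9 factors (all but Prdm1) for tag 2 over tag 1, tag 3 over tag 1 and tag 3 over tag 2 in rods, with exact conditional 95% intervals that cover counting error. Open circles have fewer than 20 expected UMIs in a tag, and dotted lines mark 1.5-fold. Nr2e3 lies below the lower line in both comparisons with tag 3.

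Of the 8 members with at least 20 expected UMIs in tags 1 and 2, none was 1.5-fold or more higher or lower in tag 2, while 12.9% of 2242 genes were higher and 19.4% lower. In tag 3 over tag 1, none of 5 members was higher and 2 were lower (Nr2e3 and Crx), beside 13.6% and 18.1% of 487 genes. In tag 3 over tag 2, none of 5 was higher and 2 were lower (Nr2e3 and Mef2c), beside 21.6% and 17.0% of 481 genes. The comparisons share the rods of tag 3, and both counts of lower members went to 0 when each cell was counted 1 time, where 6.57% and 10.6% of the same genes were lower. With no limit on genes and mitochondrial share, 240, 276 and 35 rods entered, and 3 of the 8 members were 1.5-fold or more lower in tag 2 than in tag 1, beside 20.7% of genes. Otx2 then turned from a log2 ratio of 0.34 to -0.34, and Neurod1 went from -0.32 to -0.73. The median log2 ratio of the members was 0.00, -0.53 and -0.42 in the 3 comparisons, against -0.07, 0.04 and 0.03 over all genes.

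Other regulators of photoreceptors, from a list of 30 partners of which 27 had a UMI, were in part shared by rod-like and bipolar-like cells. Against bipolar-like cells, 5 of 8 with at least 20 expected UMIs were 1.5-fold or more higher in rod-like cells and none was lower, beside 39.3% and 20.4% of all genes. Rora, a nuclear receptor related to Rorb, was at 291 CPM in rod-like, 144 in cone-like (6 UMIs in 2 cells) and 213 in bipolar-like cells. Casz1, a zinc finger protein of rods, was at 305 CPM in rod-like and 6.004 CPM in bipolar-like cells. Samd11 and Samd7, partner proteins in the silencing of genes in rods, were at 279 and 91.3 CPM in rod-like cells and at 24.0 and 0 CPM in bipolar-like cells. Rax, a homeodomain protein of retinal progenitors, photoreceptors and glia, was at 153 CPM in rod-like cells and had no UMI in bipolar-like cells. It was at 287 CPM in cone-like (12 UMIs in 3 cells) and 238 CPM in Müller glia-like cells (35 UMIs in 5 cells). The thyroid hormone receptor Thrb, which acts in cones, was at 383 CPM in cone-like (16 UMIs in 3 cells) and 51.7 CPM in rod-like cells. The homeodomain protein Meis2 was at 103 CPM in rod-like cells.

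Between tags, 2 of 7 of these partners were 1.5-fold or more lower in tag 2 than in tag 1 and none was higher, beside 19.4% and 12.9% of all genes. They were Samd7, at 113 CPM in tag 1 and 45.7 CPM in tag 2 (log2 ratio -1.28, -2.20 to -0.51), and Samd11, at 302 and 154 CPM (-0.96, -1.44 to -0.52). Casz1 was at 254, 179.9 and 73.0 CPM in tags 1, 2 and 3, the last from 5 UMIs in 2 rods.

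Rod genes that the factors are known to drive, none of which was used to name cells, were far apart between classes. All 22 of the 24 listed genes with enough UMIs were 1.5-fold or more higher in rod-like than in bipolar-like cells, with a median log2 ratio of 6.91, beside 39.3% of all genes. The 2 genes with too few UMIs differed in direction. Ppef2 was at 38.5 CPM in rod-like cells and had no UMI in bipolar-like cells. Samd14 was higher in bipolar-like cells, at 117 CPM (39 UMIs in 9 cells) against 4.95 CPM (9 UMIs in 5 cells) in rod-like cells. Against cone-like cells 14 of 18 were higher and 1 was lower (Aipl1), with a median of 1.57, beside 31.9% and 9.06% of all genes. In tag 2 over tag 1, none of 22 was higher and 1 was lower, with a median of 0.18, beside 12.9% and 19.4% of all genes. In tag 3, 6 of 20 were lower than in tag 1, with a median of -0.37, beside 18.1% of all genes and their median of 0.04. Against tag 2, 9 of 20 were lower in tag 3, with a median of -0.55, beside 17.0% and 0.03. None was higher in tag 3. Prph2, a structural protein of outer segment discs, was at 9449, 11069 and 7665 CPM in tags 1, 2 and 3. Cnga1, a subunit of the rod cyclic nucleotide-gated channel, was at 3978, 4397 and 2453 CPM, and Rp1, a microtubule protein of the photoreceptor cilium, at 1949, 1956 and 847 CPM. Gnb1, the rod transducin beta subunit, was at 5711, 7175 and 4467 CPM, and Tulp1, a transport protein of photoreceptors, at 1988, 2121 and 1416 CPM. Recoverin (Rcvrn) and Unc119, a transport protein for transducin, differed less, with log2 ratios for tag 3 over tag 1 of -0.13 and -0.05.

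Of the genes of the alternative fates named here, Gnb3, Rax, Thrb and Prdm8 had the highest levels within rod-like cells, where the others were under 10 CPM. Gnb3, Rax and Thrb stood higher in cone-like than in rod-like cells, and Prdm8 stood higher in bipolar-like cells. The cone-like values of Rax and Thrb came from 12 and 16 UMIs, in 3 cells each. Of 13 cone genes that Nr2e3 and Nrl are known to repress, Pde6h and Gngt2 were at 12307 and 9218 CPM in cone-like cells and at 7.70 and 8.25 CPM in rod-like cells. Pde6h, Gngt2 and Gnb3 are among the markers that named the cone-like class, and they were not kept out of the clustering. Their contrast between these classes was therefore built into the classes. Gnb3, the cone transducin beta subunit, was at 2346 CPM in cone-like, 1090 CPM in bipolar-like and 274 CPM in rod-like cells. Between tags it differed, with 288 UMIs in 52 rods of tag 1 (494 CPM), 19 UMIs in 9 rods of tag 2 (54.2 CPM) and 78 UMIs in 14 rods of tag 3 (1139 CPM). Thrb, with fewer UMIs, was at 20.6 CPM in tag 1 (12 UMIs in 7 rods), 65.7 CPM in tag 2 (23 UMIs in 9 rods) and 189.8 CPM in tag 3 (13 UMIs in 2 rods). Of the bipolar fate factors, Sebox stood at 1114 CPM in bipolar-like and 5.50 CPM in rod-like cells and Isl1 at 648 and 3.30 CPM. Prdm8 stood at 483 and 41.8 CPM. Of the glial and progenitor factors, Nfia was at 123 CPM in Müller glia-like and 2.20 CPM in rod-like cells, and Lhx2 and Hes5 were at 61.3 and 47.7 CPM in Müller glia-like cells and at 4.95 and 7.15 CPM in rod-like cells. Rax, which is on this list too, had 278 UMIs in 73 rods.

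The genes whose pattern across the 9 clusters was most like that of a member were sought among 3131 genes with at least 100 UMIs, by Pearson's r of log2(CPM + 50). These values are a description over 9 clusters of 1 library, 5 of them rod-like. Nrl was most like Ebpl, Ybx3 and Rcvrn (r = 0.99 each), and Nr2e3 most like Guca1b, Faim and Slc24a1 (0.99 each). Crx was most like Pcmtd2 and Atp1b2 (0.97 each), and Neurod1 most like Gnb5, Hspa4l and Dnajb2 (0.96 to 0.97). Otx2 was most like Eml5 and Map7 (0.95 and 0.94), and Rorb most like Zfp292, Aff4 and Snap25 (0.95 to 0.99). Mef2d was most like Dixdc1, Prpf8 and Med6 (0.93 to 0.95), Mef2c most like Tet3, Sh3glb1 and Sec63 (0.94 to 0.98) and Esrrb most like Wdr47, Taf4b and Atxn1 (0.92 to 0.93). Between members, r was 0.97 for Nrl and Nr2e3, 0.93 for Crx and Neurod1, 0.85 for Otx2 and Rorb, 0.20 for Nrl and Otx2 and -0.28 for Mef2c and Rorb.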

How the data were processed

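The authors sorted, tagged and pooled the cells and made UMI counts per gene and barcode with Cell Ranger against mm10, version 6.1.2 per the submitters' processing notes, which also name Scanpy 1.9.1, and 3.1.0 per the matrix header. Which annotation release they used was not given in the sources used here. The deposited tag counts and the deposited probability of a single tag, a fraction, were made by the authors with the MULTI-seq workflow, and their tag calls were used as given. Columns of other samples numbered 0.

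The members and all gene lists were chosen with earlier results of these data known. All barcodes were clustered with Scanpy 1.11.5 (genes in at least 3 cells, scaling to 10000 UMIs, 2000 variable genes, 30 principal components, 15 neighbours, Leiden resolution 1 with leidenalg 0.10.2, Python 3.11.15), after Scrublet doublets (5, expected rate 6%) and deposited tag doublets (22) were left out, with members and regulator lists kept out. A cluster took a class when at least 3 of its markers were detected in 25% of cells. The class names are rebuilt and may differ from the names used in the study. Rods compared between tags had 200 to 2500 genes and at most 18% mitochondrial UMIs, and 409 of 834 barcodes passed.

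UMIs were summed per class or tag. Log2 ratios had 0.5 UMIs added to both sums, with exact conditional 95% intervals from SciPy 1.17.1. The floor for a count of 0 was 3 counts. Intervals and floors cover counting error only. With 1 pool per group there was no test, and 1.5-fold (also 2-fold) was the size counted. The ratio code was checked on simulated data. Named in the text are all members, and from each list up to 4 genes with most UMIs and up to 3 more whose tag ratio has an interval without 0. Up to 3 genes most like each member are also named, and a few genes that this rule takes in are not reported here. Gene positions are from GENCODE on mm10, in which 99.6% of the gene IDs were found.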

Additional observations from a re-analysis of the deposited data

Results flagged for a closer look

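Factors were also read in barcodes that no tag comparison used. The 89 rod-like barcodes that were not in the tag matrix (113117 UMIs, median 1104 UMIs, median mitochondrial share 32.3%) held 178 Nrl, 110 Nr2e3, 111 Neurod1, 33 Crx, 32 Mef2c, 30 Rorb, 6 Mef2d and 4 Otx2 UMIs. The 22 barcodes that the authors called tag doublets (62911 UMIs, median 2945 UMIs) held 80 Nrl, 66 Nr2e3, 37 Neurod1, 33 Rorb, 15 Mef2c, 11 Otx2, 7 Crx and 5 Mef2d UMIs. Each of these counts was above the 3 counts that a count of 0 allows. They are given as values only, and whether these barcodes are whole cells was not tested.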

How the results depend on the processing

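No paired analysis was possible because each tag is 1 pool of cells and the tags share no replicate numbers. Of the members, 0 were 1.5-fold or more lower in tag 2 than in tag 1, and this went to 3 with no cell filter, to 1 with a strict tag call (with 1 higher as well) and to 1 with at least 10 expected UMIs. The 2 lower members in tag 3 over tag 1, and likewise the 2 in tag 3 over tag 2, went to 0 with 1 count per gene and cell, to 1 with the mean of CPM over cells and to 1 with at least 50 expected UMIs, but were 3 each with no cell filter and without the top cell of each tag. The 1 member lower in rod-like than in cone-like cells (Neurod1) went to 0 with 1 count per gene and cell, without the top cell of each class and with at least 50 expected UMIs. Against Müller glia-like cells, 2 members were lower with only barcodes that pass the cell filter and 1 with only barcodes in the tag matrix, where Otx2 reversed from 3.02 to -1.62 and -0.59 on 2 UMIs in 8 and 9 Müller glia-like barcodes. Against microglia-like cells, 1 was lower among passing barcodes, and 1 was higher, not 4, with the mean of CPM over cells. The cause was not tested. Of all genes, 13.9% were 1.5-fold lower in rod-like than cone-like cells at 10 or more expected UMIs. In tag 2 over tag 1, 8.31% were 2-fold higher and 13.5% lower at 10 or more, and at 50 or more 6.45% and 11.9% were past 1.5-fold and 0.504% and 3.33% past 2-fold. In tag 3 over tag 1, 7.41% and 13.8% were past 2-fold at 10 or more, and at 50 or more 8.29% were 1.5-fold higher and 0 were 2-fold higher. In tag 3 over tag 2, 11.4% and 14.8% were past 2-fold at 10 or more and 3.19% were 2-fold higher at 50 or more. At resolution 0.5 no cone-like or microglia-like class formed, so there is no value. The comparisons within a tag call and those with marker-bearing cone-like or Müller glia-like barcodes only were chosen after seeing the data. Depth limits the cone-like (41765 UMIs), microglia-like (67610 UMIs) and tag 3 (68495 UMIs) values.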
